A study of Homo sapiens with 4 samples.

Results

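Glycolysis and the response to low oxygen were followed in HCC1954 human breast cancer cells through 37 protein-coding genes, listed by name and looked up among the 58735 genes of the count table. Of these, 24 are glycolytic enzymes, sugar and lactate transporters and kinases that set the flux of the pathway, and 13 are subunits, regulators or targets of the hypoxia-inducible factors. The genes were listed by function, with earlier results of these data known, and all 37 were found.

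Glycolysis splits glucose into pyruvate in the cytosol. Its upper steps spend ATP on phosphorylating the sugar, its lower steps return ATP and NADH, and lactate dehydrogenase recycles the NADH by turning pyruvate into lactate, which monocarboxylate transporters export. The hypoxia-inducible factors (HIF) are transcription factors whose alpha subunits, HIF1A and EPAS1 (HIF-2 alpha), are hydroxylated by the oxygen-dependent prolyl hydroxylases of the EGLN family and then degraded, so that HIF activity is set largely at the level of protein, which RNA counts do not show. Many glycolytic genes are themselves HIF targets, and breast cancers commonly use both programmes.

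Total RNA was sequenced from 4 samples of HCC1954, an established ERBB2-amplified breast cancer line. In the first group (shCON, n = 2), cells carried a scrambled short hairpin RNA, and in the second (shZDHHC15, n = 2) a hairpin against ZDHHC15, a palmitoyltransferase of the Golgi. Both groups received hairpin plasmids in a GIPZ lentiviral vector, and the series is described as a stable knockdown although the sample protocol gives a transient transfection with harvest after 36 h. The labels name no low-oxygen treatment, and they do not say whether the numbers 1 and 2 stand for separate cultures or for different hairpins, so p-values measure only the spread between these samples, which may be technical.

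For ZDHHC15 itself, 17617 and 15716 counts in shCON stood against 0 in both depleted samples, at least 6045-fold lower against a floor of 3 counts per library. How the complete absence of ZDHHC15 counts arose was not tested. Gene counts summed to between 17560982 and 19118704 per sample, and the floor equals 0.157 to 0.171 CPM (counts scaled for library depth), which takes in no error but that of counting. The members took 1.43% to 1.63% of each library. Of 12 epithelial and breast markers, all were detected, 8 were lower and 1 was higher in shZDHHC15, where 20.3% of all genes tested were lower and 21.7% higher. Their summed level was 22389 and 24252 CPM in shCON and 13829 and 14213 CPM in shZDHHC15. Of 14 markers of leukocytes, endothelium, fibroblasts, erythrocytes and hepatocytes, 3 were at 0 in every sample (CD3E and HBB among them). The 4 that could be tested (CD14, PECAM1, CDH5 and COL1A1) were all higher, beside the 21.7% of all genes tested. That list summed to 55.0 and 57.6 CPM in shCON against 114.8 and 106.9 CPM in shZDHHC15, and the part of either marker list in the results was not tested.

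Of the 22 glycolysis members tested, 10 were not called, and those called were split between higher and lower. Several genes that regulate glycolysis or catalyse its first steps were higher in ZDHHC15-depleted cells (PFKFB4 by 3.87-fold, PFKFB3 by 2.0-fold, HK2 by 1.51-fold). Among the first steps, HK1, GPI, PFKM and PFKP were not called and ALDOA was lower. Of the enzymes of the later steps 5 were lower, with GAPDH at 0.646 of its control level, where 20.3% of all genes tested were lower. GAPDH kept its call in every fit that left out a sample, and the others of the 5 did not. Of the 13 hypoxia genes 9 rose, where 21.7% of all genes tested did, and not all of these calls held when a sample was left out. Among the 9, EGLN3 and NDRG1 rose by 2.48-fold each. The gene of the alpha subunit EPAS1 fell to 0.556 of its level in shCON and that of HIF1A rose 1.58-fold. In bulk RNA, fewer cells with a transcript and less transcript per cell cannot be told apart.

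Differences were called by edgeR's quasi-likelihood test at an adjusted p under 0.05, with Benjamini-Hochberg adjustment over the 15817 genes that passed its filter on low counts. Of the 22 glycolysis members tested, 6 were higher and 6 lower, where 21.7% of all genes tested were higher and 20.3% lower. Of the 13 hypoxia members, 9 were higher and 3 lower. In all, 24 of 35 members tested were called (68.6%), where the share over all genes tested was 42.0% and over protein-coding genes 45.9%. The samples of the groups did not overlap for 30 of the 35 members, where this held for 72.5% of all genes tested and 75.5% of protein-coding ones. The median log2 fold change was -0.02 for the glycolysis members (0.06 with scaling to library size only) and 0.66 for the hypoxia members, beside 0.02 over all genes tested. The hypoxia median was the same with CA12 at its bound and 0.73 with scaling to library size only. For the fits that left out a sample, the share of all genes called was not computed. The counts of members in those fits therefore have no background beside them. Without shZDHHC15 replicate 2, 1 glycolysis member was lower, and without shZDHHC15 replicate 1, 6 hypoxia members were higher and 1 was lower.

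**Figure D1:**
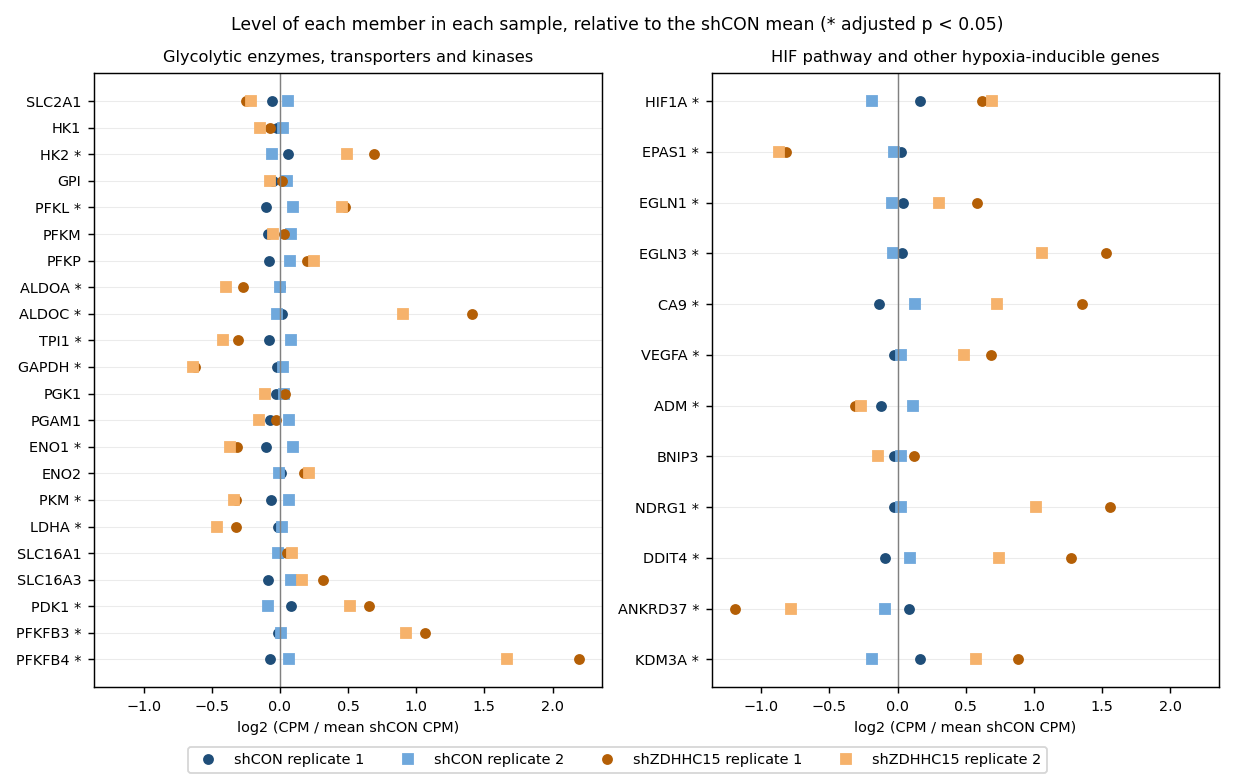
Level of each detected member in each of the 4 samples, as log2 of its CPM over the mean shCON CPM, for glycolysis members (left) and hypoxia members (right); blue points are shCON, orange points shZDHHC15, circles replicate 1 and squares replicate 2, and an asterisk marks an adjusted p under 0.05 from edgeR's quasi-likelihood test. The shZDHHC15 points of GAPDH, EPAS1 and ANKRD37 lie left of both shCON points and those of PFKFB4, EGLN3 and NDRG1 to the right. SLC2A3, LDHB and CA12 are not drawn because shCON had no counts for them.

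The DNA core that HIF binds reads ACGTG or GCGTG on either strand. Both were searched in the promoters that RefSeq gives for GRCh38.p14, from 250 bases before to 50 bases after each start, and 33 of the 37 members had an entry (NDRG1, SLC16A1, SLC2A3 and VEGFA did not). ACGTG lay in 18 of 48 promoters of glycolysis members and in 5 of 13 of hypoxia members, against 21.4% of all 35116 promoters. By call, it lay in 8 of 18 promoters of members that were higher, in 7 of 13 of members that were lower, and in 8 of 30 of the remaining members. Counted by gene, it lay in at least 1 promoter of 7 of 13 genes that were higher, 5 of 9 that were lower and 7 of 11 of the remaining ones, beside 24.9% of all genes. The order of the 3 sets thus depended on whether promoters or genes were counted. The members had 61 promoters for 33 genes and all genes 35116 for 27305, so a member had more starts in which to match. Promoters of nearby starts of a gene overlap, so a single match can be counted more than once, as for PFKM. ACGTG or GCGTG lay in 15 of 18 promoters of higher members, 12 of 13 of lower and 15 of 30 of remaining ones, beside 48.4% of all promoters. A palindromic CACGTG, which is also the E-box bound by MYC and other factors, holds ACGTG on both strands, and a match is a description of the letters, not a binding site. Promoters of 3 members that rose and 2 that fell are shown, chosen after their values were seen, with the matches in capitals. The first is CA9 (chr9:35673678-35673977, plus strand), whose match begins 18 bases before the start. PFKFB4 (chr3:48556754-48557053, minus strand) has GCGTG 166 bases before its start. PFKFB3 is shown at the RefSeq start that has CACGTG (chr10:6202682-6202981, plus strand), 108 bases upstream. GAPDH (chr12:6535014-6535313, plus strand) has CACGTG 81 bases before its start. ANKRD37 (chr4:185396591-185396890, plus strand) has CACGTG at 162 bases and a further ACGTG at 143 bases before its start.
CA9: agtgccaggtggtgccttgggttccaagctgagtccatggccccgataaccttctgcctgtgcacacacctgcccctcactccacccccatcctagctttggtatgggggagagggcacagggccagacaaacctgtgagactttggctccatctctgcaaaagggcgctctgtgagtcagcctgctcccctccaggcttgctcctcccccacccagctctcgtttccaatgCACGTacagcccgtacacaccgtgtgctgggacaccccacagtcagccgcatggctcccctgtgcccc
PFKFB4: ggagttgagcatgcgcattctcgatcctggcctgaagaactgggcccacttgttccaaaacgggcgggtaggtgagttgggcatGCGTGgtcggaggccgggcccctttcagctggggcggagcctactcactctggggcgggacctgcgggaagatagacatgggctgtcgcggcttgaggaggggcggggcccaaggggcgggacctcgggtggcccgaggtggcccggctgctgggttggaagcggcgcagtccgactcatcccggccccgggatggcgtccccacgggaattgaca
PFKFB3: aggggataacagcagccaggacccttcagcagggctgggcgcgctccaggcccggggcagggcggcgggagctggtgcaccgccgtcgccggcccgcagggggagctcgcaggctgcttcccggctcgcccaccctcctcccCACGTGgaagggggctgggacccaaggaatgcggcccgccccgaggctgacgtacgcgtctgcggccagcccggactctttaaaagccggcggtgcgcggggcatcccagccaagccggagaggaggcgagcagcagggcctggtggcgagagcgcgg
GAPDH: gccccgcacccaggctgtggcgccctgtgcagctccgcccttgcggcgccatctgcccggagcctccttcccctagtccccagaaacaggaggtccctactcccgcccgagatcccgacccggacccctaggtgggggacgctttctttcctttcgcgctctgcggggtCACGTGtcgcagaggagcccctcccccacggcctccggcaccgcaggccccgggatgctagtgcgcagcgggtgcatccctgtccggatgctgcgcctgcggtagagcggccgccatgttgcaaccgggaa
ANKRD37: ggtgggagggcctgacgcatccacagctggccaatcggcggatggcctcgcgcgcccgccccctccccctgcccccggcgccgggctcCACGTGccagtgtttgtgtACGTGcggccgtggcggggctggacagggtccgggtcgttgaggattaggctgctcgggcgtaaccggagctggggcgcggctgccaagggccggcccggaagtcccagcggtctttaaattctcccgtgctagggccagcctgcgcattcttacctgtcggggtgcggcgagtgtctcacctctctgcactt

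Glucose enters tumour cells mainly through the transporter SLC2A1 (GLUT1), which had 261 and 283 CPM in the shCON samples and 229 and 235 CPM in the shZDHHC15 samples. Both depleted samples lay under both controls, but the difference missed the threshold (log2 fold change -0.23, SE 0.0901, adjusted p = 0.052). It passed in 3 of 8 other fits of all samples, at adjusted p from 0.0221 to 0.158, and without shCON replicate 1 (adjusted p = 0.00559). SLC2A3 (GLUT3), the high-affinity transporter of neurons, had no count in any sample. Its sequence shares a stretch of 1991 bases with SLC2A14, which had 0 to 3 counts, so reads of either gene may have been lost or split.

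Hexokinase traps glucose as glucose 6-phosphate. HK1, the form found in most tissues, had 140.5 and 144 CPM in shCON and 135 and 128 CPM in shZDHHC15, a difference that was not called (log2 fold change -0.11, SE 0.0924, adjusted p = 0.352). HK2, the form induced by hypoxia and insulin and bound to mitochondria in many tumours, rose from 95.5 and 88.04 CPM to 148 and 129 CPM (log2 fold change 0.59, SE 0.102, adjusted p = 3.31e-04). As a share of the per-length level of both genes, HK2 made up 41.4% and 38.8% in shCON and 53.2% and 51.0% in shZDHHC15. The ratio of HK2 to HK1 per kilobase of exons was 0.706 and 0.633 in shCON and 1.14 and 1.04 in shZDHHC15, so that in the depleted samples HK2 lay above HK1 and in the controls under it. GPI, which isomerises glucose 6-phosphate to fructose 6-phosphate, had 444 and 476 CPM in shCON and 465 and 438 CPM in shZDHHC15, and the groups overlapped (log2 fold change -0.03, and 0.05 with scaling to library size only).

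Phosphofructokinase commits the sugar to glycolysis and has 3 genes. The liver form PFKL rose, with 145 and 165 CPM in shCON and 216 and 213 CPM in shZDHHC15 (log2 fold change 0.47, SE 0.0958, adjusted p = 0.00125). The platelet form PFKP had the highest per-length level of the 3 genes, 37.1 and 43.4 CPM per kilobase on average in shCON and shZDHHC15. Its values of 170.3 and 189 CPM in shCON and 206 and 214 CPM in shZDHHC15 did not overlap but missed the threshold (log2 fold change 0.22, SE 0.0933, adjusted p = 0.0667), which 3 of 8 other fits of all samples passed (0.0155 to 0.182), as did that without shCON replicate 2 (0.0219). The muscle form PFKM had 43.7 and 49.3 CPM in shCON and 47.5 and 44.9 CPM in shZDHHC15 and overlapped between groups (log2 fold change -0.01, and 0.07 with scaling to library size only). PFKL thereby took 28.3% and 28.8% of the per-length phosphofructokinase level in shCON and 33.0% and 32.2% in shZDHHC15, and PFKM went from 10.4% and 10.5% to 8.88% and 8.26%. The ratio of PFKL to PFKP per length was 0.461 and 0.474 in shCON and 0.568 and 0.540 in shZDHHC15. In raw counts it was 0.851 and 0.876 in shCON and 1.05 and 0.997 in shZDHHC15. The shares and the order of these genes thus depend on the lengths used, which take in all annotated exons.

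Aldolase cleaves fructose 1,6-bisphosphate into trioses. ALDOC, the form best known from brain and a gene that hypoxia induces, rose from 5.05 and 4.92 CPM to 13.3 and 9.32 CPM (log2 fold change 1.18, SE 0.21, adjusted p = 4.30e-04). ALDOA, the main form of muscle and most tumours, had 30.7 and 30.8 CPM in shCON and 25.6 and 23.3 CPM in shZDHHC15 (log2 fold change -0.33, SE 0.121, adjusted p = 0.0379). Of its exonic bases, 42.3% lie on the same strand in AC093512.2, an overlapping gene model with 39 to 57 counts per sample, and reads in both cannot be assigned from the counts, so the level and the change of ALDOA are uncertain. The call on ALDOA was lost in 3 of 8 other fits of all samples (adjusted p from 0.0236 to 0.103 over the 8). It was also lost without shCON replicate 2 (0.0519), without shZDHHC15 replicate 1 (0.0798) and without shZDHHC15 replicate 2 (0.241).

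The later steps, from TPI1 to lactate dehydrogenase, held the 7 highest per-length levels of the glycolysis members, with ALDOA ranked by its uncertain level. Of the 8 genes of these steps that were tested, 5 were lower and 0 higher, where 20.3% of all genes tested were lower and 21.7% higher. Without shZDHHC15 replicate 2, GAPDH alone of the 5 was called. Their 9 genes summed to 12471 and 13510 CPM in shCON and 10308 and 9887 CPM in shZDHHC15, a ratio of means of 0.777. The 8 upper enzymes from hexokinase to aldolase had 3 genes higher and 1 lower, the uncertain ALDOA, and the difference between upper and later steps was not tested. TPI1, which interconverts the trioses, had 934 and 1046 CPM in shCON and 799 and 743 CPM in shZDHHC15 (log2 fold change -0.36, SE 0.0904, adjusted p = 0.005). GAPDH (ENSG00000111640, chr12:6533927-6538374), which oxidises glyceraldehyde 3-phosphate and yields the NADH of glycolysis, fell from 2952 and 3042 CPM to 1947 and 1927 CPM (log2 fold change -0.63, SE 0.0825, adjusted p = 2.88e-05). The drop of GAPDH was the largest among the glycolysis members tested, and its replicates lay close together, at 2997 ± 63.8 CPM in shCON and 1937 ± 14.1 CPM in shZDHHC15 (mean ± SD, n = 2 each). GAPDH also served in the study as the normaliser of its RT-qPCR and as a loading control of its immunoblots. A stretch of 241 bases is near-identical in the pseudogene GAPDHP1, which had 144 to 239 counts beside 53811 counts for GAPDH in shCON replicate 1.

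The kinase PGK1 and the mutase PGAM1 follow GAPDH and were not called. PGK1 had 1136 and 1181 CPM in shCON and 1187 and 1074 CPM in shZDHHC15, and the groups overlapped (log2 fold change -0.04, and 0.04 with scaling to library size only). PGAM1 had 475 and 522 CPM in shCON and 488 and 449 CPM in shZDHHC15 (log2 fold change -0.09, adjusted p = 0.458), and stretches of up to 765 bases are near-identical in its pseudogenes. Enolase makes phosphoenolpyruvate. ENO1, the form of most cells, had 3053 and 3513 CPM in shCON and 2635 and 2549.8 CPM in shZDHHC15 (log2 fold change -0.34, SE 0.0902, adjusted p = 0.00724). The neuronal form ENO2 stayed low, at 9.27 and 9.19 CPM in shCON and 10.4 and 10.7 CPM in shZDHHC15, and was not called (log2 fold change 0.19, SE 0.162, adjusted p = 0.361), although its samples did not overlap. PKM, pyruvate kinase, fell from 2740.02 and 3001 CPM to 2294 and 2274 CPM (log2 fold change -0.33, SE 0.0853, adjusted p = 0.00621).

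Lactate dehydrogenase A (LDHA), a HIF target that favours lactate formation, had 1172 and 1196 CPM in shCON and 949 and 861 CPM in shZDHHC15 (log2 fold change -0.39, SE 0.0869, adjusted p = 0.00236). LDHB, the subunit that favours pyruvate, had no count in any sample. A same-strand gene model, AC010197.2, holds 33.4% of the exonic bases of LDHB and was also at 0. The remaining exonic bases of LDHB are shared with no other gene on either strand. Whether the 0 of LDHB comes from how reads were counted was not tested, and it remains uncertain. The 4 lower calls on TPI1, ENO1, PKM and LDHA were each lost when shZDHHC15 replicate 2 was left out, at adjusted p of 0.0704, 0.0605, 0.0552 and 0.0601, with log2 fold changes of -0.32, -0.32, -0.33 and -0.33. PKM was also lost without shZDHHC15 replicate 1 (0.064). GAPDH was called under every alternative run, with log2 fold changes between -0.68 and -0.55.

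**Figure D2:**
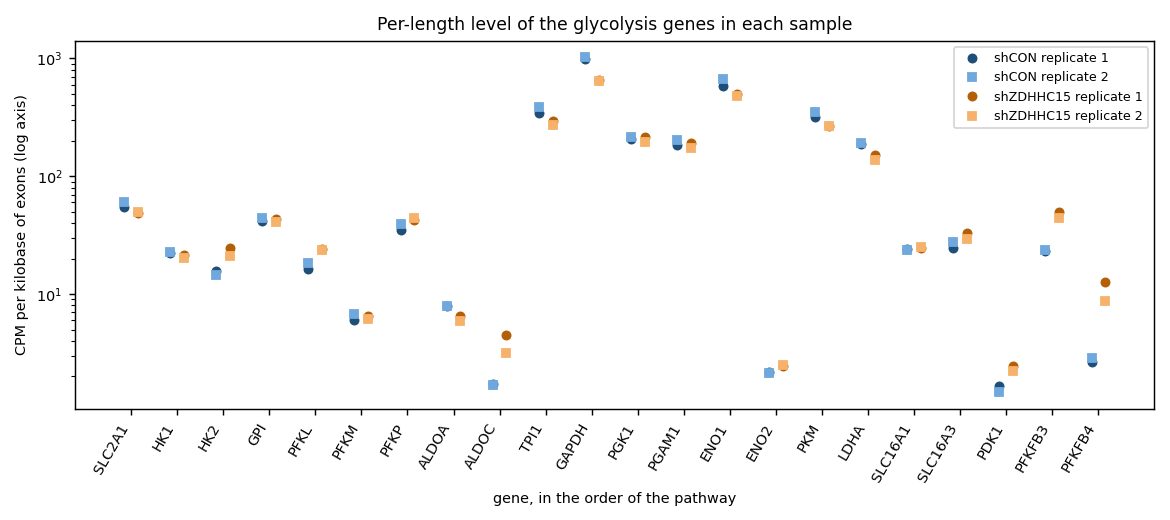
Level of each detected glycolysis member per kilobase of exons (CPM per kilobase, log axis) in the 4 samples, in the order of the pathway with the regulatory kinases last; blue points are shCON and orange points shZDHHC15, with circles for replicate 1 and squares for replicate 2. GAPDH has the highest level, a mean of 1005 in shCON and 649.7 in shZDHHC15. The shZDHHC15 points of HK2, PFKL, ALDOC, PDK1, PFKFB3 and PFKFB4 lie above both shCON points.

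Per length, GAPDH was the most abundant glycolysis member in shCON (mean 1005 CPM per kilobase), followed by ENO1 (622), TPI1 (367) and PKM (335). In shZDHHC15 the order of these 4 genes was the same, with 649.7, 491, 285 and 266 CPM per kilobase. In shCON the samples of TPI1 and PKM overlapped, so these neighbours cannot be ordered beyond their spread. ALDOA, at 7.86 CPM per kilobase in shCON, was ranked by its uncertain level. At the other end, PDK1 had 1.57, ALDOC 1.70 and ENO2 2.16 CPM per kilobase in shCON. The summed CPM of the 24 glycolysis members was 14339 and 15502 in shCON and 12633 and 12080 in shZDHHC15, a ratio of means of 0.828.

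Lactate leaves through SLC16A1 (MCT1) and SLC16A3 (MCT4), the latter a transporter of highly glycolytic cells. SLC16A1 had 127 and 125 CPM in shCON and 131 and 134 CPM in shZDHHC15 (log2 fold change 0.07, SE 0.0919, adjusted p = 0.581). SLC16A3 had 222 and 251 CPM in shCON and 294 and 265 CPM in shZDHHC15, also without a call (log2 fold change 0.24, SE 0.0969, adjusted p = 0.0572). It passed in 3 of 8 other fits of all samples (adjusted p from 0.0139 to 0.196) and without shCON replicate 2 (0.00842). Its exons overlap those of CSNK1D on the other strand, and how strand was handled in counting is not given in the sources used here. Thus 0 of the 3 transporters tested passed the threshold. At an unadjusted threshold of 0.05 there were 2 of 3 (SLC2A1 and SLC16A3). The share of all genes under that threshold was not computed, so the count has no background beside it. The DESeq2 Wald test called 0 of the 3.

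The 3 kinases that steer the pathway all rose. PFKFB3 and PFKFB4 make fructose 2,6-bisphosphate, the strongest activator of phosphofructokinase, and both are HIF targets. PFKFB3 (ENSG00000170525, chr10:6144934-6254644) had 143 and 145 CPM in shCON and 301 and 272 CPM in shZDHHC15 (log2 fold change 1.00, SE 0.0932, adjusted p = 1.04e-06). PFKFB4 (ENSG00000114268, chr3:48517684-48562015) had 16.1 and 17.7 CPM in shCON and 77.1 and 53.5 CPM in shZDHHC15 (log2 fold change 1.95, SE 0.16, adjusted p = 2.49e-07), the largest rise among the glycolysis members tested. The shZDHHC15 samples differed more from each other for PFKFB4 (65.3 ± 16.6 CPM, mean ± SD, n = 2) than the controls did (16.9 ± 1.13 CPM), but both lay far above them. The ratio of PFKFB4 to PFKFB3 per length was 0.113 and 0.122 in shCON and 0.256 and 0.197 in shZDHHC15, so PFKFB3 remained the more abundant form in each sample. PDK1, which keeps pyruvate out of the mitochondrial acetyl-CoA supply by phosphorylating pyruvate dehydrogenase, rose from 24.7 and 21.9 CPM to 36.8 and 33.4 CPM (log2 fold change 0.59, SE 0.124, adjusted p = 0.0016). All 3 kinases were called under every alternative run.

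Among the hypoxia members, the genes of the HIF alpha subunits moved in opposite directions. HIF1A (ENSG00000100644, chr14:61695513-61748259) had 293 and 230.1 CPM in shCON and 403 and 423 CPM in shZDHHC15 (log2 fold change 0.66, SE 0.108, adjusted p = 2.19e-04). EPAS1 (ENSG00000116016, chr2:46293667-46386703), the alpha subunit prominent in endothelium and kidney, fell from 145 and 141 CPM to 81.05 and 78.2 CPM (log2 fold change -0.85, SE 0.0947, adjusted p = 6.48e-06). The shCON samples differed by more for HIF1A than for EPAS1, and in neither gene did the groups overlap. Per length, the ratio of HIF1A to EPAS1 went from 2.86 and 2.32 in shCON to 7.04 and 7.66 in shZDHHC15, a change of 1.51 on the log2 scale. With 2 samples in each group, the smallest two-sided p of an exact permutation test of such a ratio is 0.333, and the ratios are given as a description.

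The prolyl hydroxylase genes, which are HIF targets as well as its inhibitors, rose. EGLN1 (PHD2), the main oxygen sensor of most cells, had 116 and 109 CPM in shCON and 168 and 139 CPM in shZDHHC15 (log2 fold change 0.45, SE 0.106, adjusted p = 0.00332). EGLN3 (PHD3), the more inducible form, had 22.9 and 21.8 CPM in shCON and 64.7 and 46.6 CPM in shZDHHC15 (log2 fold change 1.31, SE 0.147, adjusted p = 6.38e-06). The ratio of EGLN3 to EGLN1 per length was 0.195 and 0.197 in shCON and 0.380 and 0.331 in shZDHHC15. The rise of EGLN1 was not called without shZDHHC15 replicate 1 (log2 fold change 0.31, adjusted p = 0.105), and that of EGLN3 was called under every alternative run.

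**Figure D3:**
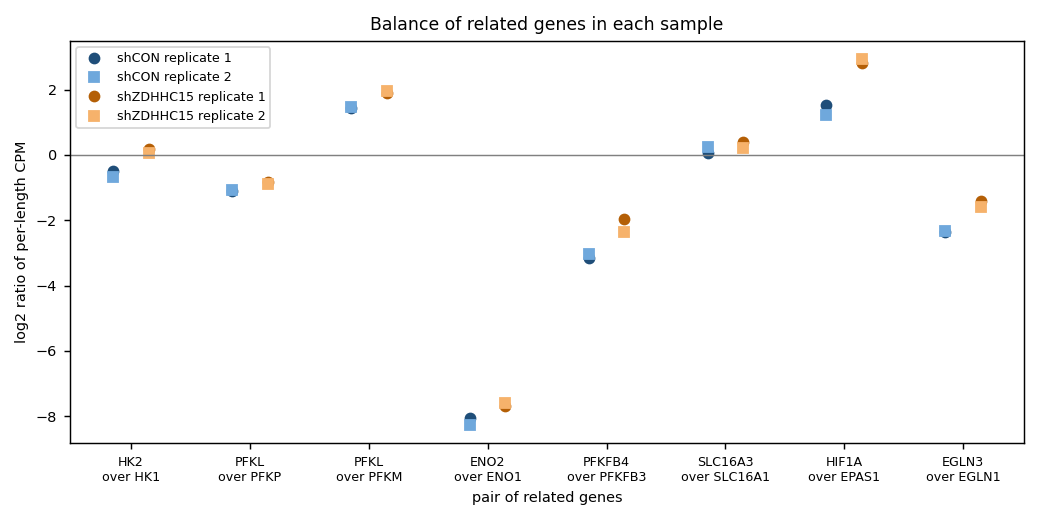
Log2 ratio of the per-length levels (CPM per kilobase of exons) of 8 pairs of related members in each of the 4 samples; blue points are shCON, orange points shZDHHC15, circles replicate 1 and squares replicate 2, and the line at 0 marks equal levels. HK2 over HK1 crosses that line between the groups, HIF1A over EPAS1 moves up by 1.51, and SLC16A3 over SLC16A1 overlaps between the groups.

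The carbonic anhydrases CA9 and CA12 sit at the cell surface and buffer the acid that glycolysis makes. CA9, among the most widely used markers of HIF activity, had 2.96 and 3.56 CPM in shCON and 8.32 and 5.40 CPM in shZDHHC15 (log2 fold change 1.07, SE 0.256, adjusted p = 0.00375). It was not called without shZDHHC15 replicate 1 (log2 fold change 0.73, adjusted p = 0.0538), and 38.5% of its exonic bases overlap other genes, chiefly ARHGEF39 on the other strand. CA12 was at 0 in both controls, while the depleted samples had 10 and 11 counts. Against the floor of 3 counts per library it was at least 3.21-fold higher (adjusted p = 0.00233), and it dropped below the filter on low counts when either shZDHHC15 sample was left out or when 10 counts were required in every sample. CA12 was thus close to the limit of detection.

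VEGFA, the main growth factor of blood vessels, had 457 and 474 CPM in shCON and 747 and 653 CPM in shZDHHC15 (log2 fold change 0.59, SE 0.0921, adjusted p = 1.40e-04). ADM, which encodes the vasodilator peptide adrenomedullin, went the other way, with 146 and 172 CPM in shCON and 128 and 132 CPM in shZDHHC15 (log2 fold change -0.29, SE 0.101, adjusted p = 0.0314). This call was lost with scaling to library size only (adjusted p = 0.0931) and with no filter on low counts (0.098), where the 8 other fits of all samples ranged from 0.00942 to 0.098. It was also lost without shCON replicate 2 (0.192), without shZDHHC15 replicate 1 (0.172) and without shZDHHC15 replicate 2 (0.0855). ADM was lower and VEGFA higher in each of these fits.

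NDRG1, a stress protein strongly induced by hypoxia and by iron depletion, had 67.3 and 69.96 CPM in shCON and 202 and 138 CPM in shZDHHC15 (log2 fold change 1.31, SE 0.141, adjusted p = 4.26e-06). DDIT4 (REDD1), an inhibitor of mTORC1 induced by hypoxia, glucocorticoids and energy stress, had 48.8 and 55.4 CPM in shCON and 126 and 87.3 CPM in shZDHHC15 (log2 fold change 1.03, SE 0.144, adjusted p = 5.11e-05). KDM3A, an oxygen-dependent histone demethylase, had 49.2 and 38.5 CPM in shCON and 81.05 and 65.2 CPM in shZDHHC15 (log2 fold change 0.73, SE 0.134, adjusted p = 5.02e-04). All 3 genes kept their call under every alternative run, and in each the shZDHHC15 samples lay above the controls. Of the exonic bases of DDIT4, 41.2% overlap genes on the other strand, of which DDIT4-AS1 was at 0 in every sample.

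The remaining members did not follow. BNIP3, a mitophagy receptor and a common HIF target, had 126 and 130.01 CPM in shCON and 139 and 116 CPM in shZDHHC15, and the groups overlapped (log2 fold change -0.01, and 0.07 with scaling to library size only). ANKRD37, a small ankyrin-repeat protein found in many hypoxia signatures, fell from 4.83 and 4.27 CPM to 1.99 and 2.65 CPM (log2 fold change -0.97, SE 0.26, adjusted p = 0.00778). The call on ANKRD37 was lost without shZDHHC15 replicate 1 (log2 fold change -0.78, adjusted p = 0.0629), and 35.2% of its exonic bases overlap UFSP2 on the other strand. Of the 3 hypoxia members that were lower, EPAS1 alone was called under every alternative run. The summed CPM of the 13 hypoxia members was 1480 and 1449 in shCON and 2150.2 and 1888 in shZDHHC15, a ratio of means of 1.38.

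The depleted samples differed from each other across the members. Of the 35 members tested, 27 had a higher level in shZDHHC15 replicate 1 than in replicate 2, by a median of 0.12 on the log2 scale. This held for 13 of the 15 members that were higher (median 0.27), where replicate 1 was then the farther from the controls, and for 7 of the 9 that were lower (median 0.05), where replicate 2 was. Over all genes it held for 8198 of 15800, with a median of 0.01. Among the higher members the gap was widest for CA9, NDRG1, PFKFB4 and DDIT4, while HIF1A and CA12 were slightly higher in replicate 2. This comparison was made after the values had been seen. The share of all genes called without shZDHHC15 replicate 1 was not computed. Without shZDHHC15 replicate 1, 6 of the hypoxia members and 6 of the glycolysis members were higher, and the median log2 fold change of the hypoxia members was 0.53.

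The same fit was read for 5 further lists of genes around these pathways. Of 35 other genes of sugar transport, glycolysis and pyruvate use, 22 were tested, with 4 higher and 4 lower (18.2% each, beside 21.7% and 20.3% of all genes tested) and a median log2 fold change of -0.0017. Those shares were no larger than over all genes. SLC2A6, a lysosomal sugar transporter, had 35.7 and 37.5 CPM in shCON and 65.6 and 68.7 CPM in shZDHHC15 (log2 fold change 0.88, SE 0.106, adjusted p = 1.39e-05). BPGM, which makes 2,3-bisphosphoglycerate, rose as well (log2 fold change 0.74, SE 0.107, adjusted p = 6.94e-05). BSG (basigin), the chaperone that brings the lactate transporters to the membrane, fell from 740.2 and 862 CPM to 571 and 578 CPM (log2 fold change -0.48, SE 0.093, adjusted p = 8.19e-04). The inositol transporter SLC2A13 was also lower (log2 fold change -0.49, SE 0.154, adjusted p = 0.019). Its call was lost without shZDHHC15 replicate 2 (adjusted p = 0.154), and 1 gene of the list was then lower.

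The pentose phosphate pathway branches from glucose 6-phosphate and makes NADPH and ribose. Of its 11 genes, 10 were tested, with 5 higher (50%, beside 21.7% of all genes) and 3 lower (30%, beside 20.3%) and a median log2 fold change of 0.35. PGD, an NADPH-forming enzyme of its oxidative arm, had 149 and 161 CPM in shCON and 404 and 346 CPM in shZDHHC15 (log2 fold change 1.27, SE 0.1, adjusted p = 1.75e-07). PGLS, the lactonase of the same arm, was lower (log2 fold change -0.44, SE 0.11, adjusted p = 0.00483), a call lost without shZDHHC15 replicate 2 (adjusted p = 0.0684). Without that sample 1 gene of the pathway was lower, and without shZDHHC15 replicate 1, 3 were higher. PRPS1, which takes ribose 5-phosphate into nucleotide synthesis, fell from 160.3 and 176 CPM to 85.1 and 78.3 CPM (log2 fold change -1.04, SE 0.0989, adjusted p = 1.22e-06). Of 11 glycogen genes, 10 were tested, with 2 higher and 2 lower (20% each, near the shares over all genes) and a median of 0.06. Glycogen synthase GYS1 was higher (log2 fold change 0.48, SE 0.096, adjusted p = 0.00111) and the liver-type phosphorylase PYGL lower (log2 fold change -0.81, SE 0.0994, adjusted p = 1.61e-05). Leaving out shCON replicate 2 or either shZDHHC15 sample left 1 glycogen gene higher. PYGM, the muscle phosphorylase, went from 35 and 15 counts to 3 and 10 (log2 fold change -2.04, SE 0.574, adjusted p = 0.0103). Its call was lost without shCON replicate 1 (0.142) and without shZDHHC15 replicate 1 (0.054), where 1 glycogen gene was lower in the second case.

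Of 18 further genes that regulate HIF, 17 were tested, with 6 higher (35.3%, beside 21.7% of all genes) and 4 lower (23.5%, beside 20.3%) and a median log2 fold change of 0.10. The third prolyl hydroxylase, EGLN2, was higher (log2 fold change 0.73, SE 0.143, adjusted p = 8.92e-04), as was the coactivator EP300 (log2 fold change 0.61, SE 0.122, adjusted p = 0.00102). CITED2, which competes with HIF for that coactivator, was lower (log2 fold change -0.69, SE 0.0954, adjusted p = 4.92e-05), as was ELOB, the elongin B subunit of the VHL ubiquitin ligase (log2 fold change -0.55, SE 0.0995, adjusted p = 4.74e-04). Without shZDHHC15 replicate 1, 3 HIF regulators were higher, and without shCON replicate 2, 4. Of 43 other HIF-linked genes, 42 were tested, with 17 higher (40.5%, beside 21.7% of all genes) and 7 lower (16.7%, beside 20.3%) and a median of 0.24. VLDLR, a lipoprotein receptor, had 25.5 and 23.3 CPM in shCON and 101 and 67.7 CPM in shZDHHC15 (log2 fold change 1.79, SE 0.16, adjusted p = 6.47e-07). PPFIA4, a liprin, had 4.88 and 3.73 CPM in shCON and 14.98 and 12.5 CPM in shZDHHC15 (log2 fold change 1.66, SE 0.197, adjusted p = 1.11e-05). EDN1, which encodes the vasoconstrictor peptide endothelin, fell from 708 and 708 CPM to 194 and 267 CPM (log2 fold change -1.62, SE 0.122, adjusted p = 1.04e-07). Without shZDHHC15 replicate 1, 9 of the 42 were higher.

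**Figure D4:**
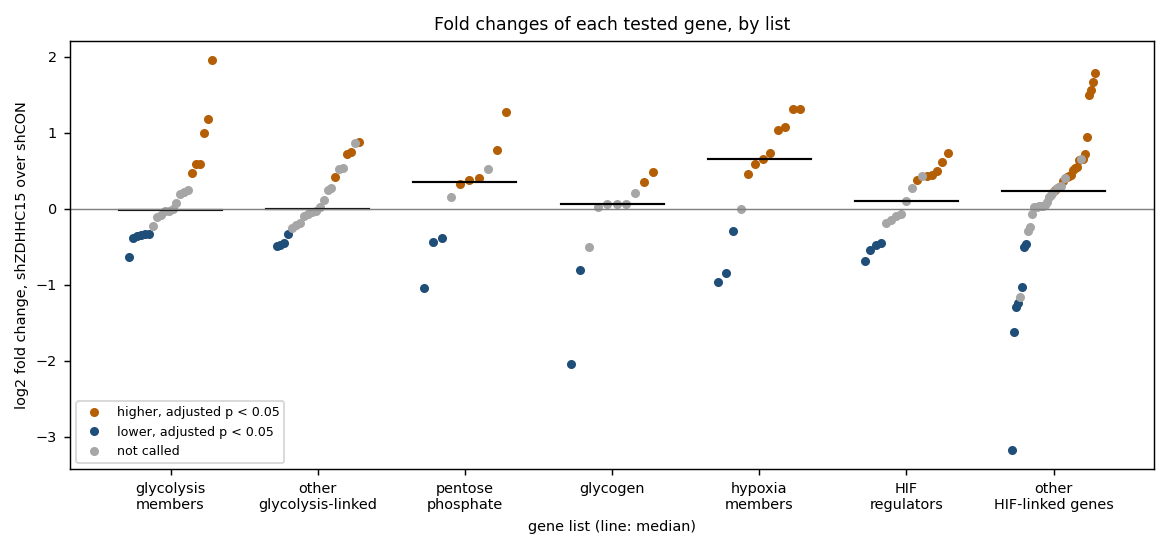
Log2 fold change (shZDHHC15 over shCON, edgeR fit) of each tested gene of the 2 groups of members and of 5 further lists; each point is a gene, ordered by value within its list, orange where higher and blue where lower at an adjusted p under 0.05, grey where not called, and the line is the list's median. The hypoxia members have a median of 0.66 and the glycolysis members of -0.02 (0.06 with scaling to library size only). CA12, given as a bound in the text, is counted in the median and not drawn.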

How the data were processed

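RNA of 4 HCC1954 samples was analysed, 2 shCON and 2 shZDHHC15, grouped by the sample titles. The authors deposited 1 table of raw counts per gene, not normalized, with gene positions and lengths. The submitters' processing notes name HISAT2, StringTie, SAMtools and hg38. Which tool made the counts, and whether counting used strand, is not given in the sources used here. All 58735 gene identifiers matched the GENCODE v29 annotation of GRCh38 with equal starts and ends.

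The 37 members and the further lists were chosen with earlier results of these data known. Genes were filtered by filterByExpr and fitted in edgeR 4.0.16 (R 4.3.3, limma 3.58.1) with TMM factors, glmQLFit and glmQLFTest, and p-values were adjusted by the Benjamini-Hochberg method over the 15817 genes tested, with a threshold of 0.05. CPM values are scaled by the TMM factors, and levels of different genes were compared per kilobase of exons. Standard errors are the fold change over the root of F. The steps were run on simulated data with changes planted in a small part of the genes. A share of changed genes as large as that called here was not simulated.

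The text names all members and, of each further list, the 2 largest rises and 2 largest falls among genes called, except that some results under this rule are not reported here. Samples of a group differed by 8.32 (shCON) and 6.79 (shZDHHC15) chi-square units per degree of freedom and were kept as separate samples. Depth was 17560982 to 19118704 counts per sample. Of the members, 22 have exons that overlap another gene and 21 share at least 150 bases at 97% identity or more with another gene, found with BLAST. Promoters were read from RefSeq on GRCh38.p14.

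As alternatives, each sample was left out in turn, the replicate number was added as a block, and the Wald test of DESeq2 1.42.0 and the legacy quasi-dispersion of edgeR were run. Scaling was changed to upper-quartile factors, to library size alone and to the size factors of DESeq2. The filter was dropped or set to 10 counts or more per sample, and ratios were taken from raw counts. Python 3.11.15 was used for summaries.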

Additional observations from a re-analysis of the deposited data

How the results depend on the processing

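Of 279 member fold changes from the alternatives that kept all samples, 259 kept their direction and call, 5 lost and 9 gained a call, and 6 changed sign; of 138 from fits without a sample, 114 kept both, 14 lost and 3 gained a call, and 7 changed sign. A fit without a sample leaves a group with 1 sample, which is assumed to vary like the other group. The share of all genes called was not computed for any alternative. Whether a changed count is particular to a list was therefore not tested. CA12 gave no value with at least 10 counts in every sample or without either shZDHHC15 sample.

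The sign changes were in members that were not called: with library size only GPI 0.048, PFKM 0.066, PGK1 0.0397 and BNIP3 0.0687; with at least 10 counts in every sample PFKM 0.0022 and BNIP3 0.0052; without shCON replicate 2 GPI 0.0116, PFKM 0.0682 and BNIP3 0.0057; without shZDHHC15 replicate 2 GPI 0.0085, PFKM 0.026, PGK1 0.0297 and BNIP3 0.11. Over the fits without a sample GPI ranged from -0.108 to 0.0116, PFKM from -0.125 to 0.0682, PGK1 from -0.11 to 0.0297 and BNIP3 from -0.14 to 0.11. Library size only moved the median of all genes to 0.09, of the glycolysis members to 0.057 and of the hypoxia members to 0.73.

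With no filter on low counts 2 other glycolysis-linked genes were lower (main 4), 3 HIF regulators were higher (main 6), and 1 glycogen gene was higher and 1 lower (main 2 each), where more genes were tested. Upper-quartile factors and the DESeq2 Wald test each left 1 glycogen gene higher, and at least 10 counts in every sample left 1 glycogen gene lower; the cause was not tested.

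Over the fits that left out a sample, the count of lower glycolysis members ranged from 1 (without shZDHHC15 replicate 2) to 7 and of higher ones from 6 to 8. Lower hypoxia members ranged from 1 (without shZDHHC15 replicate 1) to 3 and higher ones from 6 to 9. The median was between -0.10 and 0.0295 for glycolysis and between 0.53 and 0.81 for hypoxia members. Higher genes ranged from 9 to 16 for other HIF-linked genes, 3 to 6 for HIF regulators, 3 to 5 for the pentose phosphate pathway and 1 to 2 for glycogen, and lower ones from 1 to 4 for other glycolysis-linked genes, 1 to 3 for the pentose phosphate pathway and 1 to 2 for glycogen.

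Deviations of same-numbered samples correlated at 0.0344 over the genes tested. With 2 samples in each group, this value cannot show whether the numbers stand for paired cultures or hairpins. With the replicate block, 8 glycolysis members were higher and 7 lower (main 6 and 6). SLC2A1, PFKP and SLC16A3 were added at adjusted p of 0.0221, 0.0268 and 0.0283 from the quasi-likelihood test. As before, 9 hypoxia members were higher and 3 lower. The share of all genes called with the block was not computed, so these counts have no background beside them. Ratios of raw counts gave the same changes as per-length ratios, by construction, but not the same levels. CA12 and PYGM rest on few counts, and the counts of 0 for SLC2A3 and LDHB are limited by depth and by genes that share their sequence or exons.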
